A study of Drosophila melanogaster with 6 samples.

Results

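The feeding neuropeptides and receptors are 10 genes of Drosophila melanogaster, namely NPF, NPFR, sNPF, sNPF-R, AstA, AstC, Mip, Tk, Hug and SIFa. They were chosen with earlier results of these data known. A gene was measured through the probe sets whose platform annotation gives it as their one symbol, and 7 of the 10 had such a probe set, 1 each, among the 11982 genes named in this way. These were the peptide genes NPF, sNPF, AstC, Mip and SIFa and the receptor genes NPFR and sNPF-R. AstA, Tk and Hug were not analysed here. A probe set under the similar symbol ast carries the identifier of another gene and was not used for AstA.

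Neuropeptides are cut from larger precursor proteins, often amidated at their end, stored in dense core vesicles and released onto G protein-coupled receptors. In the fly, NPF (neuropeptide F, the relative of mammalian neuropeptide Y) and sNPF (short neuropeptide F) promote food seeking and intake, and SIFamide acts on appetite from a small group of brain neurons. Allatostatin C and the myoinhibitory peptides encoded by Mip act in the brain and are also made by endocrine cells of the gut.

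The arrays compared whole heads of mated females of the white-eyed strain w1118 kept on a high fat diet (3 samples) with heads of females of that strain kept on a normal diet (3 samples). The normal medium held 10% yeast and 10% sucrose besides cornmeal and agar, and the high fat medium was the same with 20% (w/v) coconut oil added. In both groups virgins of 0 to 3 days were collected, mated for 48 hours with isogenic males and then fed their diet for 7 days, mostly at 23 degrees C, and the labels do not name the samples kept otherwise. Each sample was total RNA pooled from 25 to 50 heads, hybridised to an Affymetrix Drosophila Genome 2.0 array, an oligonucleotide array read in 1 colour. The question is how a week of dietary fat alters gene expression in the head, where the feeding circuits lie. A head holds many kinds of cell, so fewer peptide-making cells and less transcript per cell cannot be told apart.

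Signal is given as deposited, on a linear intensity scale, and the level of 1 gene was not ranked against that of another. Background, read from control probe sets for proteins that flies lack, lay between 15.2 and 21.8 on the 6 arrays, and 65.3% to 70.0% of probe sets lay above it. The tissue label was checked on marker genes: all 15 measured pan-neuronal genes, all 8 of glia, all 7 of photoreceptors, all 6 of muscle and 5 of 7 of fat body lay above background on every array. Signal of genes that mark other tissues was present too. The sum over 16 female germ line genes was between 3943 and 4107 on the high fat arrays and 23580, 5865 and 29860 on normal diet replicates 1, 2 and 3. Most of the high fat sum came from tud and grk. tud was higher on the high fat diet, at 2908 to 3086 against 2438 to 2684 on the normal diet. grk was at 486 to 494 on the high fat and 468 to 522 on the normal diet, with overlapping diets. The sum over 9 midgut genes was at most 279.6 on the high fat arrays and 4843, 240.1 and 517.1 on normal diet replicates 1, 2 and 3. The ratio of 3' to 5' signal in the Act5C control probe sets, which rises as RNA degrades, was 20.4 for high fat diet replicate 2, against 11.4 and 13.2 for the other high fat arrays and 10.5 to 12.4 for the normal diet arrays. In the GAPDH control probe sets it was high on all 6 arrays, from 25.18 on normal diet replicate 3 to 35.55 on high fat diet replicate 2. A 3' bias was thus not limited to 1 array.

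All 7 genes were detected, with every value at least 5.67 times the background of its array. All 7 had a higher mean in high fat heads, as did 45.7% of all probe sets, though with each array centred on its pan-neuronal genes only sNPF-R did. None was called. By limma with Benjamini-Hochberg adjustment over 18769 probe sets, 0 of the 7 passed an adjusted p of 0.05, as did 0 probe sets in all (0%). At an unadjusted p under 0.05 there were also 0 of the 7, against 7.86% of all probe sets, and limma with trend and robust moderation put 1 of them there, sNPF-R. In 2 of the 7, sNPF-R and AstC, the 3 high fat values lay above the 3 normal diet values, a pattern found in 8.46% of all probe sets and in 11.5% of the 10703 above background on every array. In the other 5 the diets overlapped, so that none was separated with lower high fat values, which 9.23% of all probe sets were. Leaving out normal diet replicate 2 raised that count of separated genes to 4, by adding NPF and Mip, with fewer arrays to overlap and 13.9% of all probe sets separated in that direction.

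**Figure D1:**
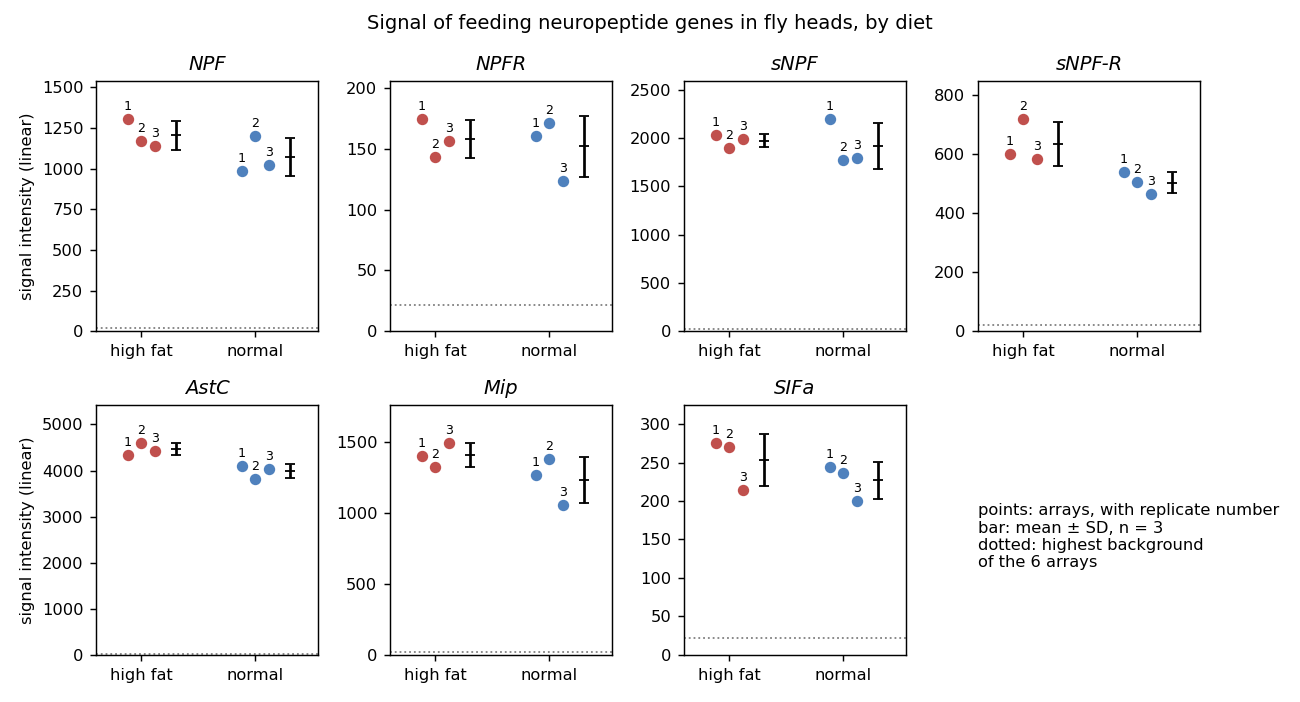
Signal intensity on a linear axis for each of the 7 genes on the 3 high fat (red) and 3 normal diet (blue) arrays, numbered by replicate, with the mean ± SD (n = 3) in black and the highest background of the 6 arrays dotted. The diets are separated in sNPF-R and AstC and overlap in NPF, NPFR, sNPF, Mip and SIFa.

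Neuropeptide F showed no separation by diet. NPF, the gene of the peptide, had signals of 1304, 1169.8 and 1140.3 on the high fat diet, against 983 and 1021 on normal diet replicates 1 and 3 and 1202 on replicate 2. Normal diet replicate 2 thus exceeded 2 of the 3 high fat arrays, and the diets overlapped. On the log2 scale NPF averaged 10.23 ± 0.10 on the high fat diet and 10.06 ± 0.15 on the normal diet (SD, n = 3 each), a change of 0.18 (SE 0.14, limma adjusted p = 0.697). The 95% interval of the ratio of high fat over normal diet ran from 0.889 to 1.44.

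NPFR, the receptor of NPF, had signals of 174, 143 and 156 on the high fat diet, against 161, 171 and 123 on the normal diet. The diets overlapped almost fully, with only normal diet replicate 3 outside the high fat range. The change was 0.065 (SE 0.18, limma adjusted p = 0.923), with an interval of the ratio from 0.767 to 1.43. Its sign rested on single arrays: it was -0.0089 without high fat diet replicate 1 and -0.077 without normal diet replicate 3.

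The short neuropeptide F pair had the smallest and the largest change of the 7 genes. sNPF, which encodes several related peptides of neurons in the brain and the olfactory system, had signals of 2032, 1897 and 1992 on the high fat diet, against 2195, 1769 and 1789.8 on the normal diet. Its high fat values fell inside the normal diet range, which normal diet replicate 1 extended upwards. The change was 0.048 (SE 0.14, limma adjusted p = 0.925), with an interval of the ratio from 0.815 to 1.31, and it was -0.0068 without normal diet replicate 2.

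sNPF-R, the receptor of the short neuropeptide F peptides, had signals of 598, 717 and 582 on the high fat diet, against 538, 505 and 465 on the normal diet. Every high fat array lay above every normal diet array, with high fat diet replicate 2 the highest. On the log2 scale the receptor averaged 9.30 ± 0.16 on the high fat diet and 8.97 ± 0.11 on the normal diet (SD, n = 3 each). The change of 0.33 (SE 0.14) did not pass (limma unadjusted p = 0.0644, adjusted p = 0.610), and its ratio of 1.25 had an interval from 0.981 to 1.60. The highest array was also the one with the Act5C ratio of 20.4. Without it the change was 0.23. The diets then stayed separate by construction, since leaving out an array cannot make separated diets overlap. Its adjusted p ranged from 0.346 to 0.978 over the 15 alternative settings. sNPF-R kept a positive change in all 15 settings, several of which cannot alter the change. The smallest was 0.055 with arrays centred on the pan-neuronal genes.

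Whether peptide and receptor genes moved differently with diet was not tested. Of the 2 receptors, NPFR had a change of 0.065 and sNPF-R of 0.33, and the 5 peptide genes lay between 0.048 and 0.20.

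Allatostatin C was separated by diet with a small difference. AstC had signals of 4343, 4599 and 4429 on the high fat diet, against 4103, 3808 and 4036 on the normal diet. The gap between the lowest high fat and the highest normal diet array was narrow. On the log2 scale AstC averaged 12.12 ± 0.04 on the high fat diet and 11.96 ± 0.06 on the normal diet (SD, n = 3 each), the tightest replicates of the 7 genes when both diets are considered. The change was 0.16 (SE 0.11, limma adjusted p = 0.655), with an interval of the ratio from 0.930 to 1.35. After quantile normalization the change was 0.12 and the diets overlapped.

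AstC-R1, a receptor of allatostatin C, had signals of 48.9, 53.9 and 72.6 on the high fat diet, against 63.4, 55.1 and 46.0 on the normal diet. The diets overlapped (change 0.08, SE 0.21, limma adjusted p = 0.917). AstC-R2 was not analysed here.

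Mip, whose myoinhibitory peptides are linked to satiety and to sleep in the fly, had signals of 1402, 1325 and 1492 on the high fat diet, against 1263, 1376 and 1058 on the normal diet. Normal diet replicate 2 lay inside the high fat range and normal diet replicate 3 was the lowest array. The change was 0.20 (SE 0.15, limma adjusted p = 0.683), with an interval of the ratio from 0.887 to 1.48. It was 0.09 without normal diet replicate 3 and 0.28 without normal diet replicate 2, so that 1 array set much of its size.

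The receptor that responds to Mip peptides is SPR, known also as the sex peptide receptor, through which mating alters female behaviour. All flies here were mated. SPR had signals of 744, 707 and 651 on the high fat diet, against 739.6, 674 and 636 on the normal diet, nearly the same range (change 0.037, SE 0.12, limma adjusted p = 0.938). A second probe set of SPR lay near or below background.

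SIFa, the gene of SIFamide, had signals of 275, 269.5 and 215 on the high fat diet, against 244, 236 and 199.6 on the normal diet. High fat diet replicate 3 lay below 2 of the 3 normal diet arrays. The change was 0.16 (SE 0.16, limma adjusted p = 0.762), with an interval of the ratio from 0.838 to 1.48, and it ran from 0.067 without normal diet replicate 3 to 0.27 without high fat diet replicate 3. SIFaR, the receptor of SIFamide, had signals of 186, 203 and 205 on the high fat diet, against 180.3, 202 and 150.5 on the normal diet (change 0.16, SE 0.15, limma adjusted p = 0.732). In both genes the diets overlapped and the lowest array was normal diet replicate 3. The second probe set of SIFaR lay close to background, with a change of 0.22 (SE 0.36).

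For tachykinin, whose own gene Tk was not analysed here, both receptors were measured. TkR99D had signals of 115, 151 and 142 on the high fat diet, against 121, 133 and 88.7 on the normal diet (change 0.26, SE 0.21, limma adjusted p = 0.701). TkR86C had signals of 148, 126 and 110.2 on the high fat diet, against 115, 106 and 104 on the normal diet (change 0.23, SE 0.15, limma adjusted p = 0.658). The diets overlapped in both. The receptors AstA-R1, AstA-R2, PK2-R1 and PK2-R2 were not analysed here.

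The intervals of the 7 genes hold for the values as deposited. The upper limits of the ratio of high fat over normal diet ran from 1.31 in sNPF to 1.60 in sNPF-R, and the lower limits from 0.767 in NPFR to 0.981 in sNPF-R. All 7 intervals of the log2 change held 0 in that scaling. The limits moved with the scaling: the highest upper limit was 2.17 with arrays centred on their medians, where the intervals of sNPF-R and AstC lay above a ratio of 1, and the lowest lower limit was 0.60 with arrays centred on the pan-neuronal genes.

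**Figure D2:**
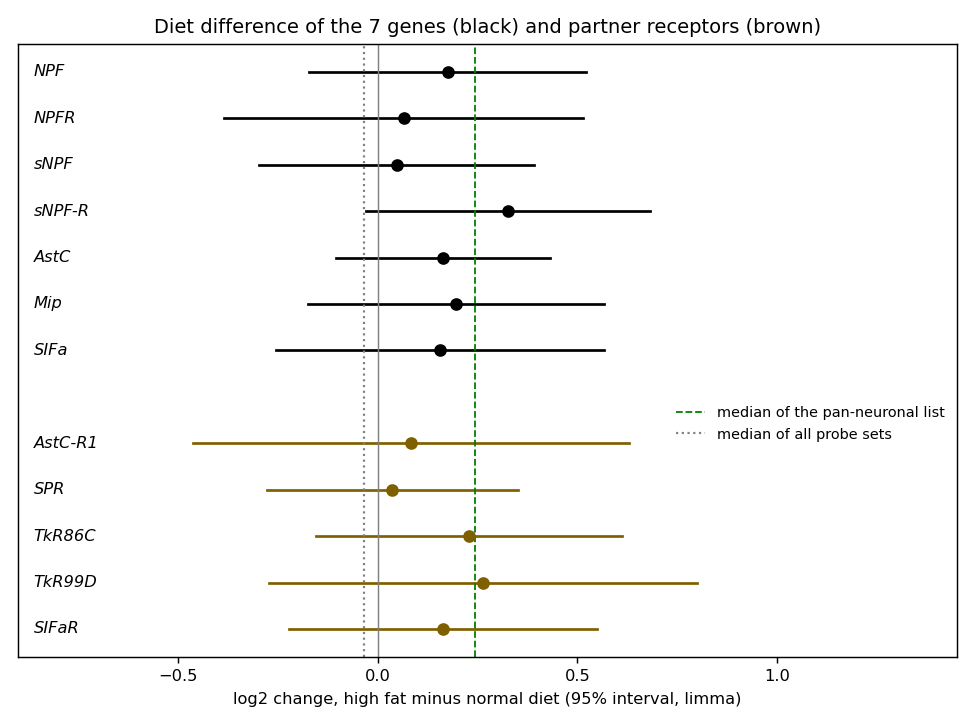
Log2 change, high fat minus normal diet, with its 95% interval from limma (n = 3 each) for the 7 genes (black) and 5 partner receptors (brown). The intervals all cross 0, and 6 of the 7 genes lie left of the pan-neuronal median of 0.24 (dashed); the median of all probe sets is -0.03 (dotted).

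The arrays differed among themselves, and lists of several head tissues shared part of the pattern. Normal diet replicate 3 was the lowest array for 4 of the 7, namely NPFR, sNPF-R, Mip and SIFa, while NPF was lowest on normal diet replicate 1 and sNPF and AstC on normal diet replicate 2. It was the lowest array for 13 of 15 pan-neuronal genes and also for 6 of 8 genes of glia, 5 of 7 of photoreceptors and 4 of 6 of muscle. With each gene set to its own mean over the 6 arrays, the median of the 7 genes was 0.10, 0.048 and 0.037 (log2) on high fat diet replicates 1, 2 and 3, and -0.038, -0.012 and -0.26 on normal diet replicates 1, 2 and 3. The same median over the pan-neuronal genes was 0.15, 0.14 and 0.08 on the high fat arrays and -0.035, -0.039 and -0.28 on the normal diet arrays. In both, normal diet replicate 3 stood apart below the other 5 arrays, as it did for glia (-0.25), photoreceptors (-0.29) and muscle (-0.38). The fat body list did not share this: its summed signal was 114200 on normal diet replicate 3, against 87770 to 110200 on the other 5 arrays. Without that array the log2 change of sNPF was 0.0016, with SIFa at 0.067, Mip at 0.09, NPF at 0.15 and NPFR at -0.077. AstC was at 0.17 and sNPF-R at 0.27.

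**Figure D3:**
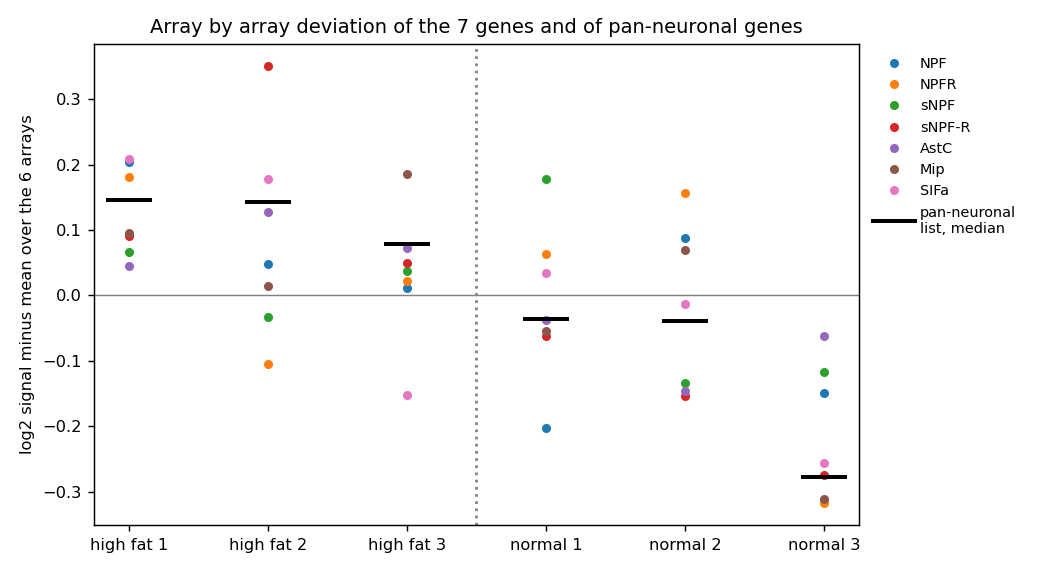
Log2 signal on each array minus the gene's own mean over the 6 arrays, for the 7 genes (points) and as the median of 15 pan-neuronal genes (black bars). The pan-neuronal median is -0.28 on normal diet replicate 3, where all 7 genes lie below their mean.

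The 7 genes were set beside neuronal genes at large. The 15 pan-neuronal genes had a median change of 0.24 and all were higher on the high fat diet as deposited. Genes of several other head tissues were mostly higher too. Photoreceptor genes had a median change of 0.30 (7 of 7 higher, diets separate in 5), muscle genes of 0.22 (4 of 6 higher) and glial genes of 0.16 (7 of 8 higher). Fat body genes were split, with a median change of -0.0055 (3 of 7 higher, 4 lower) and the diets separate in 1, lower on the high fat diet. In these lists 0 genes passed the limma threshold. Over all probe sets 8.46% were separated and higher on the high fat diet, and 9.23% separated and lower. Among the probe sets above background on every array 11.5% were separated and higher. In 10 of the 15 pan-neuronal genes the diets did not overlap, against 2 of the 7 feeding genes. Examples were the GABA receptor Rdl (change 0.33, SE 0.12, limma adjusted p = 0.610), the calcium channel cac (0.41, SE 0.16, the same adjusted p) and the brightest probe set of the active zone protein gene brp (0.38, SE 0.15, the same adjusted p). The other 3 probe sets of brp had changes of -0.035, -0.30 and -0.51 with overlapping diets. The median change of the 7 feeding genes was 0.16 and that of all probe sets -0.03. With arrays centred on the pan-neuronal genes, sNPF-R was at 0.055, and the other 6 lay between -0.22 (sNPF) and -0.076 (Mip). In that setting the diets did not overlap in NPFR, lower on the high fat diet (-0.21, limma adjusted p = 0.557), as in 20.5% of all probe sets. Centring moved the median of all probe sets to -0.31. It shifts all probe sets of an array alike, so relative to that median the 7 genes necessarily kept their place, between 0.08 and 0.36.

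The machinery that makes and releases peptides was read from 11 measured genes of a list of 12. Of these 7 had a higher and 4 a lower mean in high fat heads, with a median change of 0.17 and 0 past the limma threshold (1 at an unadjusted p under 0.05). Cadps, a priming factor for dense core vesicle release, had signals of 2497, 3085 and 2484 on the high fat diet, against 1588, 1918 and 1456 on the normal diet. The diets were well separated (change 0.70, SE 0.17, limma unadjusted p = 0.00796, adjusted p = 0.579). The second probe set of Cadps did not show this: it had signals of 565, 403 and 617 on the high fat diet, against 565.5, 521.5 and 471 on the normal diet (change 0.0055, SE 0.20).

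The amidating enzymes and the convertase are among the other steps of the list. Of the amidating enzymes, Pal2, a lyase, had signals of 3742, 3819 and 3647 on the high fat diet, against 3317, 3305 and 2721 on the normal diet (change 0.27, SE 0.13, limma adjusted p = 0.612). Phm, the hydroxylase of the same step, was at 0.19 (SE 0.12) with separate diets in its brightest probe set. In the second probe set of Phm the diets overlapped, with 233, 279 and 253 on the high fat diet, against 240, 246 and 215 on the normal diet (change 0.13, SE 0.13). The lyase Pal1 was at -0.027 (SE 0.18) with overlapping diets. 7B2, a chaperone of the prohormone convertase amon, had a change of 0.20 (SE 0.12, limma adjusted p = 0.642), and its diets were separate too. amon itself was at 0.11 (SE 0.12) with overlapping diets. dimm, the transcription factor of peptidergic cells, was above background on 1 high fat array and on 0 normal diet arrays, too dim for a ratio.

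Other peptides and receptors linked to feeding or gut function gave a like picture. Of 21 listed genes 16 were measured, 14 with a higher mean in high fat heads and 2 with a lower one, with a median change of 0.20 and 0 past the limma threshold (1 at an unadjusted p under 0.05). CNMa, a peptide linked in the fly to amino acid appetite, had signals of 97.3, 114.6 and 90.9 on the high fat diet, against 56.0, 71.8 and 48.0 on the normal diet. Each high fat array exceeded each normal diet array (change 0.80, SE 0.20, limma unadjusted p = 0.00921, adjusted p = 0.590). Leucokinin (Lk), which acts on water balance and meal size, had signals of 217, 248 and 237 on the high fat diet, against 172, 196 and 208 on the normal diet (change 0.29, SE 0.13, limma adjusted p = 0.610). Myosuppressin (Ms), which slows gut and heart muscle, had a change of 0.26 (SE 0.12, limma adjusted p = 0.610) with separate diets. CCHa2, a nutrient-responsive peptide gene of fat body and gut and chosen here after its values were seen, was separated in the other direction, with 1687, 1765 and 1759 on the high fat diet, against 1976, 2026 and 2056 on the normal diet (change -0.22, SE 0.10, limma adjusted p = 0.610).

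**Figure D4:**
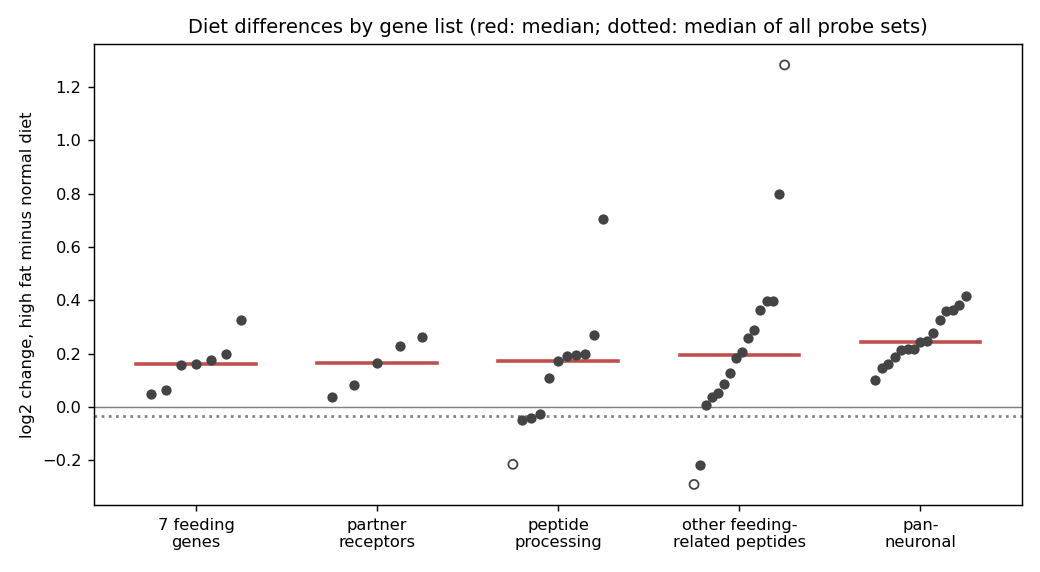
Log2 change, high fat minus normal diet, of each measured gene by list, with list medians in red (0.16, 0.16, 0.17, 0.20 and 0.24 from left to right) and the median of all probe sets dotted. Open circles are genes not above background on every array; none of the genes shown passed the limma threshold.

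Gut RNA was examined because NPF, AstC and Mip are also made in gut endocrine cells. Of the 9 midgut genes measured, 3 lay above background on every array and 0 lay below it on every array, and all 9 had a lower mean in high fat heads. The digestive protease gene Jon65Aiii had signals of 4.31, 2.42 and 8.32 on the high fat diet, all below background, against 768, 12.1 and 61.7 on the normal diet. The trypsin gene betaTry had 34.1, 26.0 and 32.2 on the high fat diet, against 651.5, 37.6 and 145.9 on the normal diet. Midgut signal was thus concentrated on normal diet replicate 1. On that array NPF was at 983, its lowest value of the 6 arrays, and Mip at 1263 lay between the other normal diet arrays. AstC at 4103 was the highest of its diet but below every high fat array. Whether gut RNA added to the signal of NPF, AstC and Mip was not tested.

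**Figure D5:**
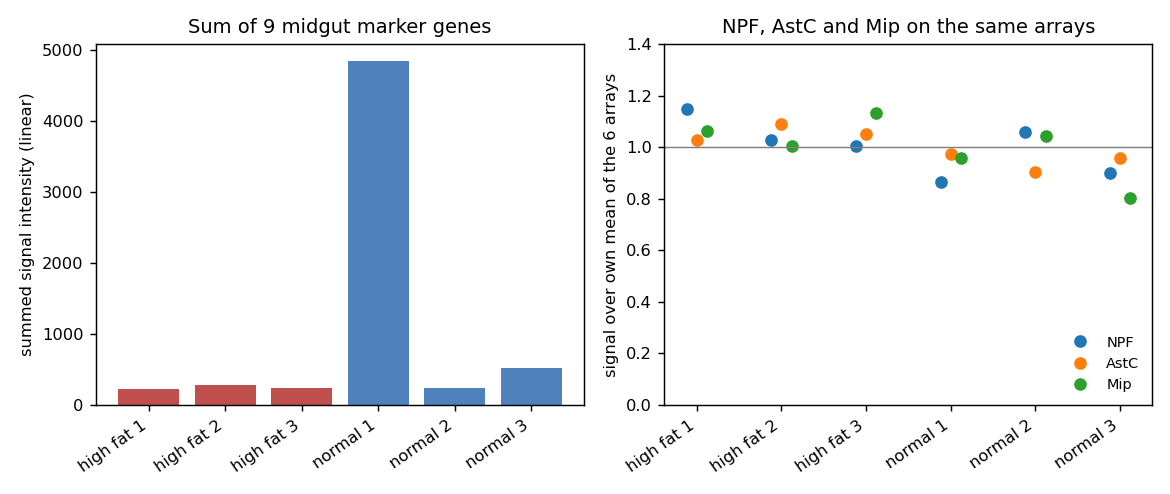
Left, summed linear signal of 9 midgut genes on the high fat (red) and normal diet (blue) arrays; right, the signal of NPF, AstC and Mip on the same arrays, each divided by its own mean over the 6 arrays. The midgut sum is 4843 on normal diet replicate 1, where NPF, AstC and Mip lie below their own means.

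Germ line signal also differed between the arrays. Of the 16 germ line genes, 15 had a lower mean in high fat heads, 9 lay above background on every array and vas lay below it on every array. osk, which assembles the germ plasm, had signals of 13.6, 16.2 and 19.5 on the high fat diet, against 1665, 416 and 2124 on the normal diet. Normal diet replicates 1 and 3 carried the most. Without those 2 arrays, a setting chosen after the data were seen that leaves 1 normal diet array and assumes that it varies like the high fat arrays, 6 of the 7 feeding genes had a higher mean in high fat heads. In that setting sNPF-R was at 0.32, AstC at 0.23 and sNPF at 0.16, with all 3 high fat arrays above the remaining one, as in 25% of all probe sets. For sNPF-R and AstC that followed from their separation on all 6 arrays. Mip was at 0.029, NPF at 0.00062 and NPFR at -0.12.

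sNPF-R, the feeding gene with the smallest unadjusted p, was set against the 8325 other genes above background on every array to find those with the most similar profile. Likeness was the root mean square difference between log2 profiles over the 6 arrays, each centred on its own mean. The nearest were CG30158 (0.028), the growth factor gene miple1 (0.033), the phosphatase gene PRL-1 (0.035), the chromatin remodeller kis (0.037) and the hydroxylase gene Asph (0.038). Each was highest on high fat diet replicate 2 and lowest on normal diet replicate 3, as sNPF-R was. That follows from choosing them by likeness over these same 6 arrays and is no separate result. miple1, for example, had signals of 4446, 5316 and 4467 on the high fat diet, against 4174, 3869 and 3384 on the normal diet.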

How the data were processed

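The values are signal intensities deposited by the authors on a linear scale, 1 column per array, made with Affymetrix Expression Console per the submitters' processing notes (version unstated there). The mean without the top and bottom 2% of probe sets was 500 on every array, so each was scaled by 1 factor. The 183 control probe sets were left out, values below 1 were set to 1 (2010 values) and log2 was taken. limma 3.58.1 in R 4.3.3 (lmFit, eBayes) compared high fat with normal diet over all 6 arrays and 18769 probe sets, adjusted by Benjamini-Hochberg, and was tested on simulated data. Genes were named from probe sets with 1 symbol (13647; 402 had several and 4720 none), of which 13544 matched the reference gene table by identifier and 0 symbols changed. The brightest probe set stood for a gene. Background was the 95th percentile of 50 control probe sets.

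All 10 feeding genes are named. Of each other list up to 3 genes with the smallest p were to be named. The receptors of the peptides among the 10, and the 5 genes most like the feeding gene of smallest p, were to be named too. Not all genes of smallest p are named from the germ line and midgut lists, and none from glia, photoreceptor, muscle and fat body. Named outside that rule are tud, grk and vas of the germ line list, Phm, Pal1, amon and dimm of the peptide processing list, and CCHa2. The genes and lists were chosen with earlier results of these data known. Replicates are biological per the series' design text; pairs of arrays correlated at 0.939 to 0.955 (log2, across probe sets) and shared at most 0.00533% identical values. Only 3 arrays per diet limit the precision. Alternatives covered the spread estimate, normalization, floor, dim probe sets, probe set choice, replicate block and arrays left out.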

Additional observations from a re-analysis of the deposited data

How the results depend on the processing

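The 7 feeding genes passed the limma threshold in none of the 15 alternative settings, and 95 of the 105 gene and setting pairs kept the sign of the change. Part of that count was fixed in advance. The settings for the spread estimate, floor, dim probe sets, probe set averaging and replicate block left the change of each of the 7 genes as it was. Centring arrays on the pan-neuronal genes left 1 of the 7 higher on the high fat diet. In that setting 0 were separated and higher (1.52% of all probe sets) and 1 was separated and lower (20.5% of all probe sets). NPF was at -0.097, NPFR at -0.21, sNPF at -0.22, AstC at -0.11, Mip at -0.076 and SIFa at -0.12. The other sign changes were NPFR without high fat diet replicate 1 (-0.0089), without normal diet replicate 3 (-0.077) and with replicate 2 as the only normal diet array (-0.12), and sNPF without normal diet replicate 2 (-0.0068). The count of genes separated and higher was 1 after quantile normalization, where 11.1% of all probe sets were. It was 4 after median centring, where 19% of all probe sets were and their median change moved to 0.23. Leaving out 1 array gave 6 to 7 genes higher. Of the 7, 2 to 4 were then separated and higher, against 11.9% to 13.9% of all probe sets, and 0 separated and lower, against 12.5% to 20.4%. Genes separated on all 6 arrays necessarily stayed so. The change of NPFR then ran from -0.077 to 0.16 and that of sNPF from -0.0068 to 0.15. Over all probe sets the main count of 0 calls became 26 with trend and robust moderation, 2 with pan-neuronal centring and 6 without dim probe sets, and 0 to 167 with 1 array left out, the most without normal diet replicate 2 (16 higher, 151 lower). sNPF-R had an unadjusted p of 0.0232 with trend and robust moderation, 0.0353 after quantile normalization, 0.0325 after median centring, 0.0327 with the floor at 16, 0.0372 without dim probe sets and 0.0486 when the probe sets of each gene were averaged. For AstC it was 0.0477 after median centring and 0.0109 with the floor at 16. The cause of these shifts was not tested.

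Deviations from the diet mean correlated at -0.074, 0.0002 and 0.029 between same-numbered arrays and at -0.097 to 0.11 between arrays of unlike number. With 3 arrays per diet these values cannot show whether the replicate numbers pair the samples, and the labels do not say. With the replicate block 0 probe sets were called and 7 feeding genes had a higher mean. The values were unchanged, so 2 were separated and higher, as in 8.46% of all probe sets. The limma adjusted p of sNPF-R was 0.675.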
